A study of Mus musculus with 42 samples.

Results

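The genes described here are 10 genes of the lipid droplet and of triglyceride lipolysis, G0s2, Hilpda, Pnpla2, Plin2, Plin3, Plin4, Plin5, Cidea, Cideb and Cidec, chosen by gene name from the 19756 gene names listed in any of the 6 deposited tables of mouse liver RNA. Each table compared 2 groups of 7 mice, and all 10 genes were listed in 5 tables and 9 in the table of KO lean against WT lean mice, where Cidea was not listed. The animals were 42 male C57BL/6J mice in 6 groups. WT mice were littermates of ChemR23 KO mice, in which the chemerin and resolvin E1 receptor gene Cmklr1 was disrupted in the whole body by CRISPR/Cas9, so that the KO groups come from 1 engineered allele. From 6 weeks of age the lean groups (WT lean, KO lean) ate a lard diet with 10% of its energy as fat and the obese groups (WT obese, KO obese) a lard diet with 60%, for 15 weeks. WT obese+RvE1 and KO obese+RvE1 mice ate the high fat diet and then received 300 ng of resolvin E1 (RvE1), a pro-resolving lipid derived from the omega-3 fatty acid EPA, by intraperitoneal injection on 4 consecutive days, while all other groups, the lean ones included, received the ethanol and saline vehicle. Livers were taken on day 5 after a fast of at least 4 h.

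A lipid droplet is a core of triglyceride and sterol ester under a single layer of phospholipid, and in hepatocytes it is where dietary and newly made fatty acids are stored. Pnpla2 encodes adipose triglyceride lipase, which cuts the first fatty acid from a triglyceride, and the small proteins encoded by G0s2 and Hilpda bind this lipase and inhibit it. The perilipins, Plin2 to Plin5, coat the droplet and control the access of lipases, and the CIDE proteins, Cidea, Cideb and Cidec, move lipid between droplets or onto nascent lipoproteins. Many of these genes are textbook targets of the PPAR nuclear receptors, which sense fatty acids, and several also respond to fasting and feeding.

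Members were compared by the deposited normalized count, which is the number of reads of a gene divided by the size factor of its library. Reads on listed genes ran from 15992525 to 43841120 per library. Differences are given as log2 fold changes of the normalized count plus 1, from a limma fit of all genes of a table with a mean of at least 5, and a gene passed at a Benjamini-Hochberg adjusted p under 0.1. In whole liver, fewer cells of a type and less RNA per cell cannot be told apart.

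The targeted gene and the tissue were checked first. Cmklr1 ran from 9.72 to 22.6 in KO lean mice against 40.8 to 114 in WT lean mice, and from 5.08 to 23.2 in KO obese against 33.3 to 102 in WT obese mice, so the labelled genotypes stood apart in both diets (log2 fold changes -2.23 and -2.04, limma, adjusted p = 0.000492 and 0.0339). All 6 hepatocyte markers were listed in each table, and their summed level was between 784165 and 1847730 in every mouse. Of 7 adipocyte markers, 2 (Slc7a10 and Acvr1c) were listed in the diet tables, where their sum was at most 10.95. Adipoq, Lep and Plin1 were not listed there, so these tables cannot show whether adipocyte RNA was present. In the comparison of KO obese with WT obese mice, which used the same obese libraries, Adipoq was 32.3 in WT obese replicate 5. It was 17.6 in KO obese replicate 3 and at most 2.14 in each other obese mouse.

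The upstream regions of the 4 genes with the clearest diet differences are shown because they include neighbouring genes that moved in opposite directions. The sequences are from the RefSeq promoter table for build GRCm38.p6 and are written 5′ to 3′ on the strand of the gene. Each covers the bases up to 250 before the RefSeq start site and stops before the first annotated GENCODE exon. Capitals mark every match to the nuclear receptor hexamer AGGTCA, on either strand, or to TATAAN.
G0s2, chr1:193273218-193273438, minus strand: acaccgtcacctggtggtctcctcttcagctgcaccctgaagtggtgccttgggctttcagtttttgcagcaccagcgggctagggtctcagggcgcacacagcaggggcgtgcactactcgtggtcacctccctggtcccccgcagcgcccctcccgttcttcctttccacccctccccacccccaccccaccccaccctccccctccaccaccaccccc
Plin2, chr4:86670061-86670309, minus strand: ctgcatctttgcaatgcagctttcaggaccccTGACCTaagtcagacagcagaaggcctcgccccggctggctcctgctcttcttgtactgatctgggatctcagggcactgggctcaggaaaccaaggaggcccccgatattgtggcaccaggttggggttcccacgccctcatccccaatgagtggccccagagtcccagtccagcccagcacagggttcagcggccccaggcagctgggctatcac
Plin4, chr17:56109804-56110032, minus strand: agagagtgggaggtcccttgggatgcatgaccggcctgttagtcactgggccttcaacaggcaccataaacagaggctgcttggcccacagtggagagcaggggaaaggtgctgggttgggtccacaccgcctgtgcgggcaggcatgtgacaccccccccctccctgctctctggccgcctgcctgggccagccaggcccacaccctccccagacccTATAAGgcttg
Plin5, chr17:56117597-56117798, minus strand: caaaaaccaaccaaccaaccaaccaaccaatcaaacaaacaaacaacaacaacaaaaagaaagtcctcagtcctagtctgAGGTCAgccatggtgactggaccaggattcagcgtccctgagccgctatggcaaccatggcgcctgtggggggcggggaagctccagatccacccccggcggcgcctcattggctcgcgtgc
The Plin2 region held the hexamer on its opposite strand at -218 to -213 from the start site, and the Plin5 region held it at -170 to -165. This hexamer was in 14.0% of 32851 RefSeq promoters of this length. A TATAAN match lay at -32 to -27 in Plin4 and at -27 to -22 in Plin5, where 22.7% of promoters had at least 1 anywhere in the window. The Plin5 match is inside an annotated exon and is not printed. The DR1 element of PPAR binding sites, a pair of AGGNCA hexamers in the same direction spaced by 1 base, was in 0.338% of promoters and in none of the printed regions, and CACGTG, the clock E-box, was in 6.02% and also in none of them. The G0s2 region matched none of these letters, and 67.0% of its printed bases were G or C.

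By position, G0s2 (chr1:193272161-193273217) lies inside the span of Lamb3 on the opposite strand and shares 0 exon bases with it. Plin5 (chr17:56111601-56117596) and Plin4 (chr17:56100591-56109803) lie on the same strand 1798 bases apart, and Plin4 shares 17 exon bases with Hdgfl2. Cideb (chr14:55754050-55758458) shares 1136 exon bases, 76.3% of its exon length, with Nop9 on the opposite strand. The strand setting of the counting is not given in the sources used here, so reads of Cideb and Nop9 cannot be told apart with certainty and Cideb values are uncertain.

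Per kilobase of exon, G0s2 had the highest median level of the 10 genes in all 6 groups, followed by Plin2 and then Plin5. In WT lean liver the medians of the normalized count per kilobase were 18027 for G0s2, 4548 for Plin2 and 1519 for Plin5. The 7 mice of a group were all higher in G0s2 than in Plin2 in 5 of 6 groups, the exception being WT obese mice. Plin2 stood above Plin5 in this way in 3 of 6 groups. Pnpla2, Cideb and Plin3 followed at medians of 304 to 873. Cidec and Plin4 changed places with each other and with Plin3 between groups, and Hilpda changed places with Plin4 only. Cidea, a gene best known from brown fat that appears in fatty liver, was lowest in each group with medians of 0 to 14.6. Levels of groups from different tables were scaled separately, so this order was read within groups.

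**Figure D1:**
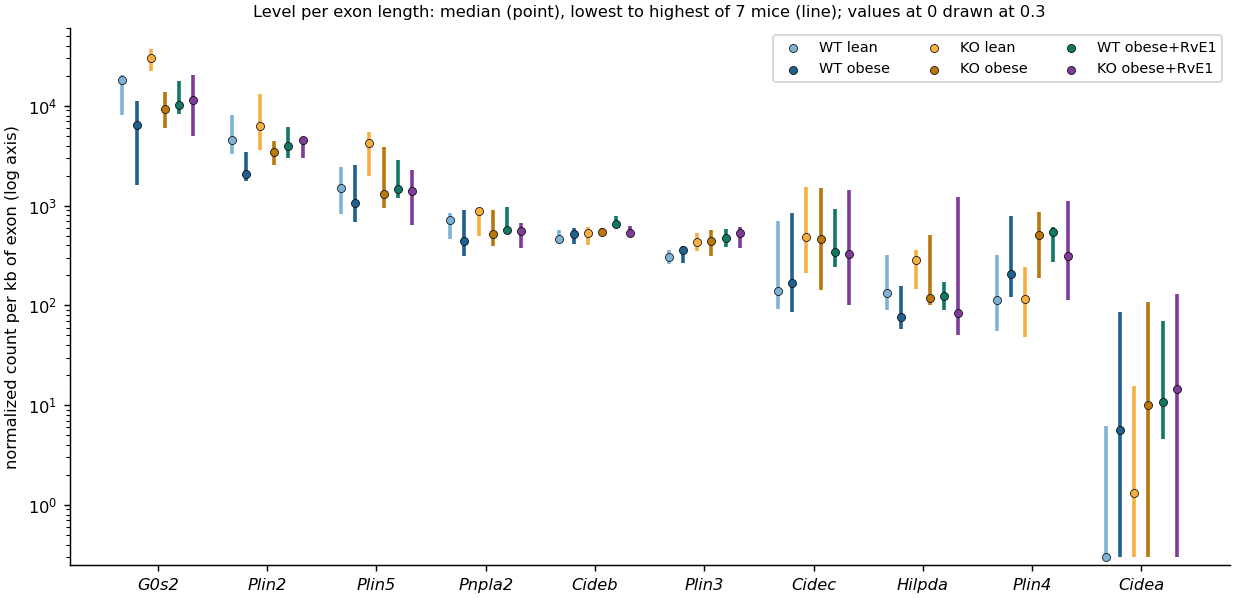
Normalized count per kilobase of exon (log axis) of each gene in the 6 groups, with points at the median and lines from the lowest to the highest of 7 mice. G0s2 is highest and Cidea lowest in each group, with WT lean medians of 18027 and 0, and values at 0 are drawn at 0.3.

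Pnpla2, which encodes the lipase itself, did not pass in any comparison in the main fit. In WT mice its normalized count was 1387, 2152 and 2537 (lowest, median and highest) on the lean diet and 944, 1343 and 2727 on the high fat diet. Of the 7 WT obese mice, 5 lay below every lean mouse and 1 lay above every lean mouse. The difference on the log2 scale was -0.54 (95% interval -0.94 to -0.13, limma, adjusted p = 0.143). In KO mice Pnpla2 ran 1496, 2638 and 2885 on the lean diet and 1177, 1583 and 2703 on the high fat diet, with a log2 fold change of -0.40 (interval -0.79 to -0.01, adjusted p = 0.148). Lean KO and lean WT livers had nearly the same mean Pnpla2, 2150 ± 469 and 2151 ± 402 (SD, n = 7), and the interval of the difference was -0.35 to 0.33. The Pnpla2 call depended on a few mice. It passed in WT mice without WT obese replicate 1 (-0.70, adjusted p = 0.0130) or without WT lean replicate 1 (-0.63, adjusted p = 0.0985), and in KO mice without KO obese replicate 4 (-0.50, adjusted p = 0.0570) or without KO lean replicate 3 (-0.50, adjusted p = 0.0701). It also passed in both genotypes when libraries were weighted by quality (adjusted p = 0.0349 in WT and 0.00532 in KO).

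G0s2, the inhibitor of this lipase, was lower on the high fat diet in both genotypes. In WT mice it ran 7074, 15701 and 17686 on the lean diet and 1403, 5599 and 9712 on the high fat diet. All 7 WT obese mice lay below the lean median and 5 lay below the lowest lean mouse, so the groups overlapped. The fall was 2.45-fold (log2 fold change -1.29, SE 0.35, limma, adjusted p = 0.0504). G0s2 was 1 of 2 members that passed in WT mice, both lower, of 10 tested, where 6.27% of 14012 genes passed, 3.65% higher and 2.61% lower. At an unadjusted p under 0.05 there were 6 members of 10 and 18.2% of all genes. The WT call was lost when libraries were scaled to equal totals (adjusted p = 0.109) and when mice with the same identifier number were treated as a random block (adjusted p = 0.112).

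In KO mice G0s2 ran 19423, 26174 and 32496.5 on the lean diet and 5259, 8015 and 12073 on the high fat diet. No KO obese mouse reached the level of any KO lean mouse. G0s2 had the smallest p of all 14213 genes of this table, with a 3.38-fold fall (log2 fold change -1.76, SE 0.18, limma, adjusted p = 0.000312). It was the only member whose groups did not overlap, where 1.11% of all genes lay wholly lower. The diet effect on G0s2 was not shown to differ between genotypes (interaction -0.46, interval -1.30 to 0.38, limma, adjusted p = 0.585).

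Lean KO livers held more G0s2 RNA than lean WT livers. Within the lean table, G0s2 ran 7337, 16365 and 18275 in WT mice and 17653, 23768 and 29504 in KO mice. Of the 7 KO lean mice, 6 lay above every WT lean mouse. This difference was 0.86 on the log2 scale (SE 0.21, limma, adjusted p = 0.0400), and the call was lost with the identifier number as a block (adjusted p = 0.139), under which 3 genes in all passed in this table. In obese mice the difference between genotypes was 0.40 with an interval of -0.30 to 1.09, and 0.09 without WT obese replicate 1. These 4 comparisons share their groups in pairs, so they are not independent of each other.

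Kupffer cell markers moved with G0s2 in the KO comparisons. Of 6 such genes, 5 were listed, and Adgre1 was not. Their summed normalized count was 6173 to 14150 in KO lean against 3533 to 4660 in KO obese mice, and 5624 to 12830 in KO lean against 2320 to 5490 in WT lean mice, without overlap in either comparison. The part of these cells in the G0s2 and Plin5 differences was not tested. In WT mice, where G0s2 also fell with diet, the same sum was 2220 to 5278 on the lean diet and 2450 to 4523 on the high fat diet. The summed sinusoidal endothelial markers, all 4 listed, were 2357 to 4729 in KO lean and 1797 to 3221 in KO obese mice, and those of stellate cells, all 5 listed, were 7034 to 10851 and 7623 to 9447.

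The ratio of G0s2 to Pnpla2 per kilobase sets the inhibitor beside the lipase in each mouse. It ran 10.4, 21.5 and 31.9 in WT lean and 1.78, 15.1 and 28.7 in WT obese mice, and these overlapped widely. In KO mice the ratio ran 23.3, 40.5 and 60.7 on the lean diet and 6.75, 14.7 and 35.6 on the high fat diet, a wider separation in which the groups still overlapped. The ratio is a description of RNA levels and was not tested.

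Hilpda, the other inhibitor and a gene induced by hypoxia, was expressed at a far lower level. In WT mice it ran 100, 147 and 357 on the lean diet and 64.6, 83.4 and 173 on the high fat diet, with a log2 fold change of -0.75 (SE 0.30, limma, adjusted p = 0.198). In KO mice it ran 160, 311 and 392 on the lean diet and 112, 132 and 566 on the high fat diet. In KO obese mice 5 lay below every lean mouse while replicate 4 lay above them all. The log2 fold change of -0.82 passed narrowly (SE 0.30, limma, adjusted p = 0.0782). Without KO obese replicate 4 it was -1.11 (adjusted p = 0.00297). The call held without KO obese replicate 4 or KO lean replicates 1, 2 or 5, and was lost without any other of the 14 mice, with a highest adjusted p of 0.146. It was also lost with equal totals (adjusted p = 0.106), with the block (0.242), in edgeR (0.186) and in DESeq2 (0.161). In WT mice it passed in DESeq2 (adjusted p = 0.0892) and with quality weights (0.0661).

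**Figure D2:**
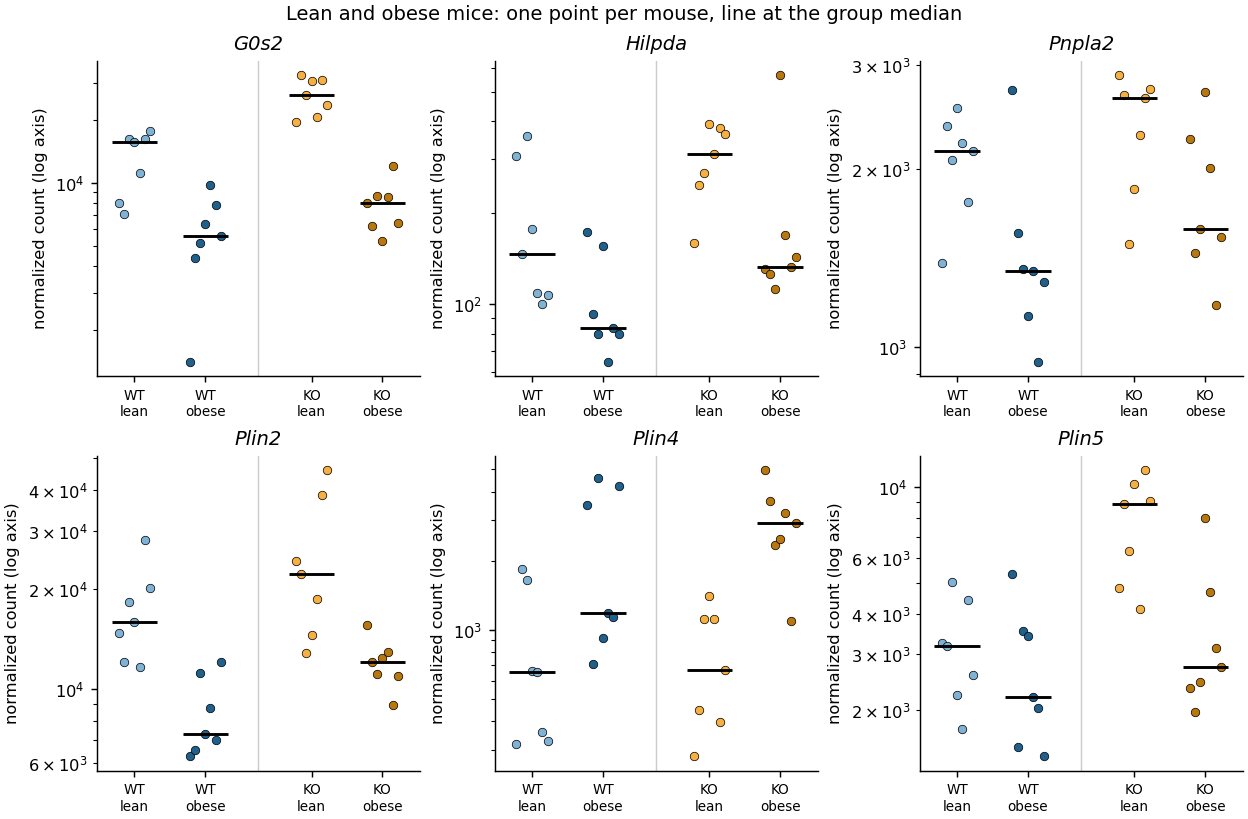
Normalized count of 6 members in each mouse (points, log axis) by genotype and diet, with a line at the median of 7 mice. G0s2 medians are 15701 and 5599 in WT lean and obese mice and 26174 and 8015 in KO mice, where no mouse of the 2 diets overlaps, and 1 KO obese mouse stands at 566 for Hilpda.

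Plin2, the main droplet coat of hepatocytes and a protein stabilised by stored lipid, had lower RNA on the high fat diet in both genotypes. In WT mice it ran 11672, 15971 and 28166 on the lean diet and 6260, 7320 and 12069 on the high fat diet. Only 1 of the 7 WT obese mice reached the range of the lean mice. The fall was 2.02-fold (log2 fold change -1.02, SE 0.20, limma, adjusted p = 0.0106). In KO mice Plin2 ran 12818, 22315 and 45880 on the lean diet and 8979, 12071 and 15592 on the high fat diet, with 5 obese mice below every lean mouse. The KO log2 fold change was -0.95 (SE 0.25, limma, adjusted p = 0.0212). The interaction was 0.07 with an interval of -0.62 to 0.75. Plin2 passed in both genotypes in each of the 9 other processing settings and without any 1 mouse.

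Of the 10 members, 5 passed in KO mice, 1 higher and 4 lower, where 24.1% of 14213 genes passed, 12% higher and 12.1% lower, and 6 had an unadjusted p under 0.05, where 32% of all genes did. The 1 that rose was Plin4, which coats small and nascent droplets and is best known from adipocytes and muscle. In KO mice Plin4 ran 281, 671 and 1399 on the lean diet and 1093, 2930 and 4969 on the high fat diet. All KO obese mice but 1 lay above every lean mouse. The rise was 4.06-fold (log2 fold change 2.02, SE 0.36, limma, adjusted p = 0.00425), and it passed in all 9 other settings and without any 1 mouse.

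In WT mice Plin4 ran 318, 659 and 1839 on the lean diet and 708, 1185 and 4576 on the high fat diet. All 7 obese mice lay above the lean median, and the group split into 3 mice at 3506 to 4576 and 4 at 708 to 1185. The log2 fold change was 1.46 (interval 0.39 to 2.53, limma, adjusted p = 0.128) and did not pass. It passed without WT lean replicate 2 (adjusted p = 0.0837), WT lean replicate 3 (0.0961) or WT obese replicate 2 (0.0997). The interaction was 0.56 with an interval of -0.81 to 1.92, so a difference between genotypes was not shown.

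Plin5, the coat of oxidative tissues that binds the lipase and its partner and tethers droplets to mitochondria, lies next to Plin4 but moved the other way in KO mice. There it ran 4162, 8837 and 11331 on the lean diet and 1963, 2718 and 7992 on the high fat diet. Of the 7 KO obese mice, 5 lay below every lean mouse. The fall was 2.29-fold (log2 fold change -1.19, SE 0.29, limma, adjusted p = 0.0171). In WT mice Plin5 ran 1736, 3170 and 5050 on the lean diet and 1429, 2193 and 5328 on the high fat diet, with a log2 fold change of -0.27 and an interval of -0.88 to 0.35. The interaction was -0.93 (interval -1.83 to -0.03, limma, adjusted p = 0.259) and did not pass, though with quality weights it was -1.19 (adjusted p = 0.0494). In this interaction 0 of 10 members passed in limma or edgeR, where 0.00718% of 13924 genes passed in limma. In DESeq2, which gave Cidea no adjusted p, 0 of 9 members passed, where 9.38% of 9874 genes did. In limma Plin5 was the 1 member with an unadjusted p under 0.05, where 18.3% of genes had such a p.

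Plin5 was also higher in lean KO than in lean WT mice. In the lean table it ran 1814, 3288 and 5247 in WT and 3791, 8023 and 10284 in KO mice. In KO mice 5 of 7 lay above every WT mouse. The log2 fold change was 1.09 (SE 0.26, limma, adjusted p = 0.0357), with an adjusted p of 0.139 under the block. Plin5 and G0s2 were the 2 members that passed in this comparison, both higher, of 9 tested, where 16.3% of 13031 genes passed, 8% higher and 8.3% lower. At an unadjusted p under 0.05 there were 5 of 9, where 26.8% of genes had such a p. The same Kupffer cell marker sums given beside G0s2 move with this result. In obese mice the genotype difference in Plin5 was 0.17 with an interval of -0.52 to 0.85.

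Plin3, a coat protein found in most tissues that binds new droplets from the cytosol, varied least among the perilipins. It ran 980, 1151 and 1368 in WT lean and 1014, 1360 and 1503 in WT obese mice, and the intervals of its diet effect were -0.09 to 0.37 in WT and -0.20 to 0.36 in KO mice. In lean KO against lean WT mice it ran 1203, 1491 and 1814 against 1017, 1200 and 1423, a log2 fold change of 0.28 (interval 0.04 to 0.51, limma, adjusted p = 0.121). This passed in DESeq2 (adjusted p = 0.0741), with quality weights (0.0216), without KO lean replicate 5 (0.0517) and without WT lean replicate 6 (0.0957).

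**Figure D3:**
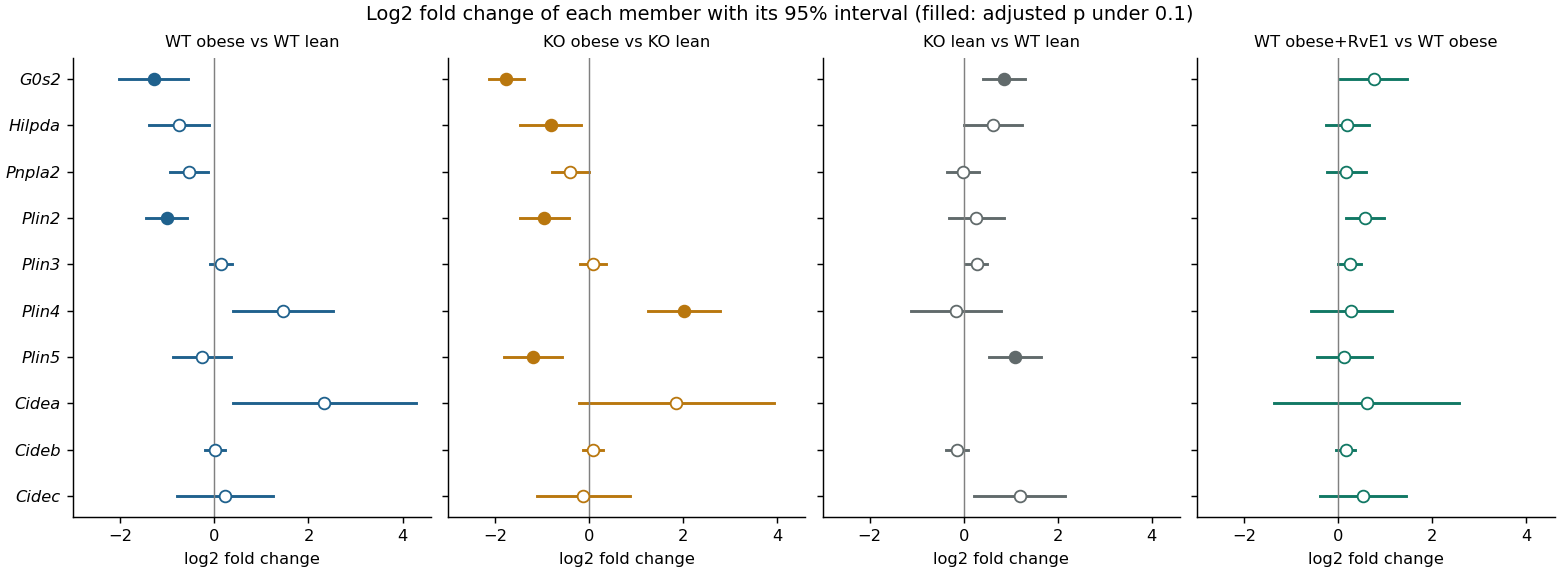
Log2 fold change of each member with its 95% interval in 4 comparisons, with filled points at an adjusted p under 0.1 in limma. Plin4 stands at 2.02 and G0s2 at -1.76 in KO obese against KO lean mice, and no point is filled for RvE1.

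Among the CIDE genes, none passed in the main fit. Cidea, which enlarges droplets by lipid transfer, was close to absent in WT lean liver, with 4 of 7 mice at 0 and a highest value of 6.97. In WT obese mice it ran 0, 6.25 and 95.3, with replicates 3 and 7 at 87.0 and 95.3 and the other 5 at 7.81 or below. In KO mice it was 17.4 or below on the lean diet and ran 0, 11.1 and 121 on the high fat diet, with replicates 1 and 2 at 77.9 and 121. The limma log2 fold changes of 2.33 in WT (interval 0.39 to 4.28, adjusted p = 0.183) and 1.86 in KO mice (interval -0.22 to 3.93, adjusted p = 0.205) did not pass.

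Count models gave larger Cidea values, which passed in both genotypes. They were 3.93 in WT (edgeR, adjusted p = 0.0642) and 2.93 in KO mice (edgeR, adjusted p = 0.0601), and 4.01 and 3.05 in DESeq2 (adjusted p = 0.0633 and 0.0723). With quality weights Cidea also passed (adjusted p = 0.0772 and 0.0267). In the main fit it passed without WT obese replicate 4 (2.88, adjusted p = 0.0824) and without KO obese replicate 4 (2.42, adjusted p = 0.0771), each of which had no Cidea read. In each obese group 2 of 7 mice carried the highest values, as given above.

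Adipocyte marker sums were read in the same mice. In the table of KO obese against WT obese mice, where 6 of 7 adipocyte markers were listed and Trarg1 was not, the marker sum was 125 in WT obese replicate 5 and 68.8 in KO obese replicate 3 and at most 12.5 in the other 12 mice. WT obese replicates 3 and 7 had sums of 9.61 and 12.0, and KO obese replicates 1 and 2 had 7.52 and 6.01. The part of adipocyte RNA in the Cidea values was not tested. Of the brown fat markers Cox7a1, Slc36a2 and Ucp1, the sum was at most 11.9, and Ucp1 was at 0 in all 7 KO obese mice.

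Cidec, the partner of Cidea in forming large droplets, differed more between mice than between diets. It ran 171, 260 and 1289 in WT lean, 158, 308 and 1548 in WT obese, 394, 906 and 2849 in KO lean and 264, 858 and 2793 in KO obese mice. The diet intervals were -0.79 to 1.24 in WT and -1.11 to 0.87 in KO mice. In the lean table all 7 KO mice lay above the WT median, with a log2 fold change of 1.19 (interval 0.23 to 2.15, limma, adjusted p = 0.108). It passed with quality weights (1.68, adjusted p = 0.0128), without KO lean replicate 5 (1.36, 0.0497), without WT lean replicate 6 (1.498, 0.0512) and without KO lean replicate 3 (1.40, 0.0970). Cideb, which takes part in loading lipid onto lipoproteins, stayed between 601 and 899 in every mouse of the diet tables, and its diet intervals were -0.21 to 0.22 in WT and -0.13 to 0.29 in KO mice.

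Between obese KO and obese WT mice 0 of 10 members passed in limma, and 0 had an unadjusted p under 0.05, where 0.0141% of 14162 genes passed and 2.25% had such a p. The count was also 0 in edgeR and DESeq2. The values nearest to a difference were Plin2, at 6867, 8052 and 13234 in WT and 8657, 11704 and 15183 in KO mice (log2 fold change 0.34, interval -0.0046 to 0.69), and Hilpda (0.56, interval -0.12 to 1.24). The widest intervals were those of Cidea, -2.50 to 2.48, and Cidec, -0.22 to 1.91.

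RvE1 was given to obese mice to ask whether it changes hepatic transcription and whether ChemR23 is needed for this. In WT mice 0 of 10 members passed in limma, edgeR or DESeq2, where 0% of 13085 genes passed in limma and 0.191% in DESeq2. At an unadjusted p under 0.05 there were 2 members, Plin2 and G0s2, where 6.08% of genes had such a p. Plin2 ran 7339, 8589 and 14139 with vehicle and 10507, 13822 and 21352 with RvE1, a log2 fold change of 0.57 (interval 0.17 to 0.97, limma, adjusted p = 0.772). G0s2 ran 1645, 6559 and 11463 on vehicle and 7224, 8824 and 15458 on RvE1 (0.75, interval 0.05 to 1.46, adjusted p = 0.797). Without WT obese replicate 1, the lowest G0s2 value, the G0s2 difference was 0.44.

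All 10 members had a log2 fold change above 0 in this comparison, with a median of 0.26 against 0.00 over all genes. For G0s2, Hilpda, Pnpla2, Plin2, Plin4 and Cidec each of the 7 treated mice lay above the vehicle median, where 5.82% of all genes did. That share was read for this comparison only. The log2 fold changes of the other members lay between 0.13 for Plin5 and 0.60 for Cidea. Mean Plin4 was 2730 with vehicle and 2672 with RvE1, though its treated mice all lay above the vehicle median. The sign turned for Cidea in edgeR and DESeq2 (-0.63 and -0.58), for Plin4 in the same tools (-0.05 and -0.04), and for Plin5 without WT obese+RvE1 replicate 1 (-0.02) or WT obese replicate 7 (-0.0049). Members of 1 liver share a library, so these 10 values are not 10 independent observations.

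In KO mice 0 of 10 members passed in limma, edgeR or DESeq2, and 0 had an unadjusted p under 0.05, where 0% and 8.3% of 14207 genes did in limma and 0.12% passed in DESeq2. Plin2 ran 9062, 12203 and 15889 with vehicle and 10448, 16116 and 17234 with RvE1 (0.26, interval -0.05 to 0.57), and G0s2 ran 5300, 8168 and 12186 with vehicle and 4342, 9976 and 17829 with RvE1 (0.12, interval -0.48 to 0.73). Values were above 0 for 4 members and below 0 for 6, with a median of -0.09. In the RvE1 by genotype interaction 0 of 10 members passed or had an unadjusted p under 0.05, where 0% and 2.38% of genes did, and the counts that passed were also 0 in edgeR and DESeq2. Of the 10 interaction values 9 were below 0, with G0s2 at -0.63 (interval -1.58 to 0.32) and Plin2 at -0.31 (interval -0.81 to 0.19), so that a genotype dependence of the RvE1 effect on these genes was not shown.

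**Figure D4:**
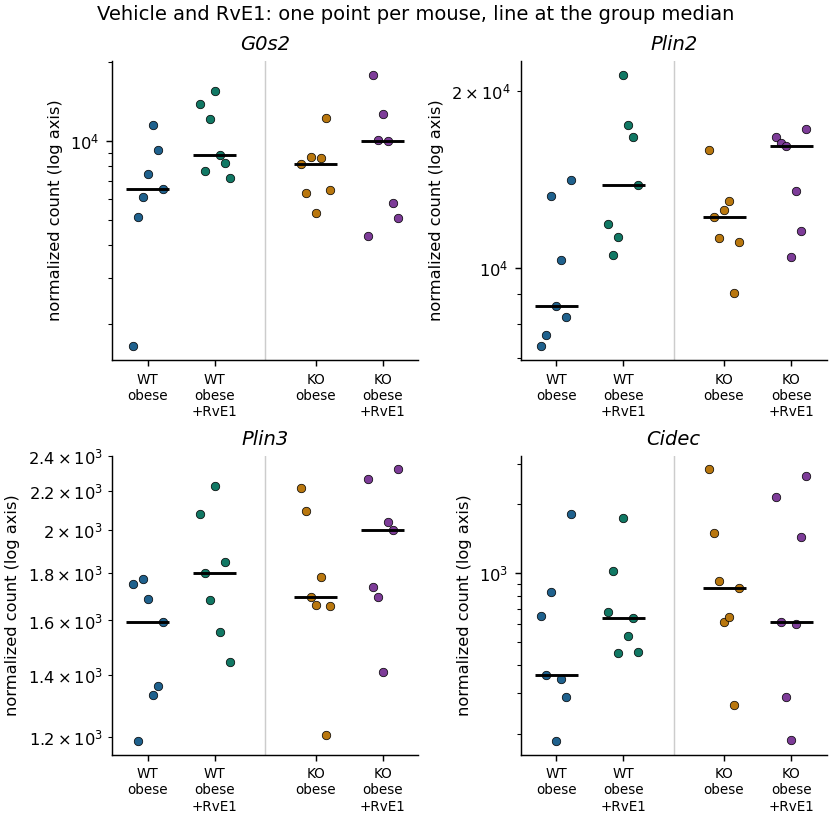
Normalized count (log axis) of 4 members in each obese mouse with vehicle or RvE1, with a line at the median of 7 mice. In WT mice the Plin2 median is 8589 with vehicle and 13822 with RvE1, the groups overlap for each gene shown, and no difference passed.

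Other genes of droplet assembly, lipolysis and triglyceride synthesis were read from a list of 34, of which 32 were tested in each table. In WT mice 2 passed higher and 2 lower, and in KO mice 4 higher and 7 lower, with list medians of -0.09 and -0.07 against 0.00 for all genes in both. That was 12.5% of the list in WT and 34.4% in KO mice, where 6.27% and 24.1% of all genes passed. Fitm1, which helps droplets bud from the endoplasmic reticulum, ran 114, 326 and 544 in WT lean and 569, 903 and 1115 in WT obese mice (log2 fold change 1.501, limma, adjusted p = 0.00545). Mogat1, which makes diacylglycerol, also rose in WT mice (2.04, adjusted p = 0.0643), while Tmem159, a partner of seipin in droplet assembly, fell (-0.66, adjusted p = 0.0431). The level of Mogat1 was low, with medians of 7.01 in WT lean and 24.0 in WT obese mice. Lipa, the lysosomal acid lipase, fell in both genotypes (-0.58, adjusted p = 0.0387 in WT, and -0.72, adjusted p = 0.00764 in KO mice, limma). In KO mice the droplet enzyme Hsd17b13 (0.43) and the droplet turnover gene Spg20 (0.50) rose and the acyltransferase Agpat2 (-0.47) fell, with adjusted p of 0.0514, 0.0189 and 0.0256 in limma. In lean KO against lean WT mice 1 of 32 was higher (Aup1, 0.32) and 2 were lower (Acsl3, -0.56, and Vps13c, -0.80), 9.4% of the list where 16.3% of all genes passed. In the other comparisons 0 of 32 passed.

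Of 14 PPAR receptors and textbook PPAR targets outside the members, 2 passed higher and 4 lower in WT mice, and 2 higher and 5 lower in KO mice. These were 42.9% and 50% of the list, against the same 6.27% and 24.1% of all genes. Pparg, the receptor isoform of fat storage, ran 27.99, 57.1 and 84.5 in WT lean and 43.2, 165 and 369 in WT obese mice (1.62, limma, adjusted p = 0.0312). In KO mice it ran 30.3, 64.6 and 99.9 on the lean diet and 104, 307 and 559 on the high fat diet (2.05, adjusted p = 0.00444). Its target Cd36, a fatty acid transporter, rose in both (1.59, adjusted p = 0.0140, and 1.46, adjusted p = 0.0175). The PPAR targets Ehhadh and Acot1 fell in both genotypes, Ehhadh by 1.48 and 1.81 and Acot1 by 1.39 and 1.53 on the log2 scale (limma, adjusted p = 0.00295, 0.00840, 0.00717 and 0.00420). Cd36 was also higher in lean KO than in lean WT mice (0.71, adjusted p = 0.0817), as 1 of 14 genes that passed there, 7.1% against 16.3% of all genes.

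Clock and feeding genes were read because time of day and time since the last meal can set the level of several members. Of 11 clock genes tested, 2 were higher and 2 lower in WT mice, and 2 higher and 1 lower in KO mice, which was 36.4% and 27.3% of the list beside 6.27% and 24.1% of all genes. Per3 rose in both (1.48 and 1.11, limma, adjusted p = 0.00284 and 0.0305), Npas2 fell in both (-1.93 and -1.47, adjusted p = 0.0671 and 0.0901), Tef rose (0.69, adjusted p = 0.0433) and Clock fell (-0.70, adjusted p = 0.0146) in WT mice, and Per2 rose in KO mice (1.31, adjusted p = 0.0133). Npas2 was near the floor, with lean and obese medians of 6.38 and 3.48 in WT and 12.3 and 2.64 in KO mice. In lean KO against lean WT mice 0 of 11 passed, where 16.3% of all genes did. Of 8 fasting and feeding genes, Srebf1 rose (0.96, adjusted p = 0.0628) and Irs2 and Igfbp1 fell (-1.48 and -1.47, adjusted p = 0.0279 and 0.0997) with diet in WT mice, 0 passed with diet in KO mice, and Fasn and Irs2 were lower in lean KO than in lean WT mice (-1.25 and -1.35, adjusted p = 0.0357 and 0.0482). These were 37.5%, 0% and 25% of the 8 genes, beside 6.27%, 24.1% and 16.3% of all genes. The part of these genes in the member differences was not tested.

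Between mice of 1 group, the members fell into patterns of their own. Deviations from the group mean on the log2 scale were correlated over 42 mice, as a description in which each pair of values shares its library. Cidea and Cidec deviated together (r = 0.75, above 0 in 5 of 6 groups), as did Plin3 and Cidec (0.73, 6 of 6), Plin2 and Cidec (0.66, 6 of 6) and Hilpda and Plin5 (0.65, 6 of 6). G0s2 deviated against the gene of the lipase it inhibits (r = -0.48), but r was above 0 in 2 of 6 groups. WT obese replicate 1 was the lowest of its group in G0s2 (1403) and the highest in Pnpla2 (2727), and r without this mouse was not computed. Cidea varied most within groups (pooled SD 2.14 on the log2 scale), followed by Cidec (1.07), and Cideb varied least (0.15).

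Outside the members, Plin4 deviated with Ppara (r = 0.68, above 0 in 6 of 6 groups) and Pdk4 (0.61, 6 of 6). Cidea deviated with Pparg (0.72) and Cd36 (0.72), each above 0 in 6 of 6 groups. Plin2 deviated with the PPAR target Cyp4a14 (0.64, 6 of 6) and Hilpda with the insulin-repressed gene Igfbp1 (0.64, 6 of 6). These pairs were among the highest, as was Cidec with Cd36 (0.67, 5 of 6). The PPAR genes read did not go together. Over them r ran from -0.38 (Angptl4, 0 of 6) to 0.64 for Plin2, with Ppara at -0.12 and Pdk4 at 0.01. It ran from -0.27 (Cyp4a14) to 0.68 for Plin4 and from -0.29 (Angptl4) to 0.72 for Cidea. For Hilpda it ran from -0.36 (Cyp4a14, 0 of 6) to 0.50 (Angptl4, 5 of 6), and for Cidec from -0.36 (Angptl4, 0 of 6) to 0.67 (Cd36).

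**Figure D5:**
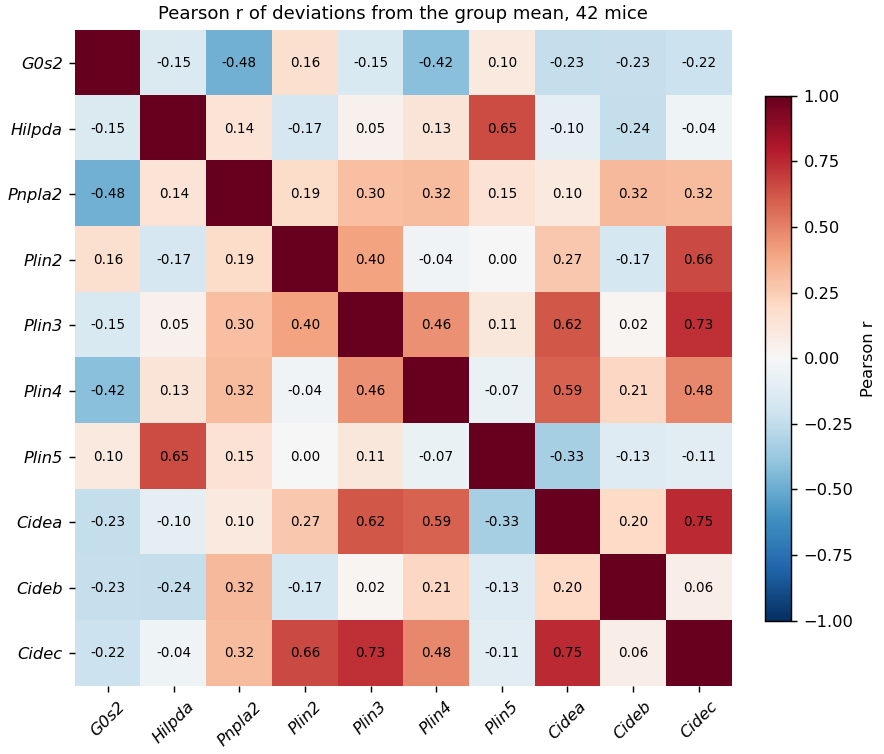
Pearson r between members over 42 mice, from deviations of log2 values from the group mean, with blue below 0 and red above 0. Cidea and Cidec stand at 0.75, Hilpda and Plin5 at 0.65, and G0s2 and Pnpla2 at -0.48.

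The genes whose levels followed G0s2 most closely over the 14 mice of each diet table were taken by the lower of the 2 correlations among 13924 genes. They were Kctd2 (0.88), Trappc4 (0.85), Gm13889 (0.82), Lztr1 (0.80) and Gfer (0.80), and all 5 had negative log2 fold changes with diet in both genotypes, from -0.27 for Gfer in WT to -1.06 for Gm13889 in WT mice. They were chosen over lean and obese mice, between which G0s2 itself fell, so the choice largely fixed this sign. In lean KO against lean WT mice these 5 differed by 0.10 to 0.15 and did not pass, with a lowest adjusted p of 0.451. Among members Plin2 stood nearest to G0s2, at place 106 with 0.63. The genes nearest to Cidec, by the same measure, were Atp9a (0.85), Bhlhb9 (0.84), Plekha1 (0.81), Slc16a13 (0.79) and Lamb3 (0.79), of which 0 passed with diet, and Plin3, Cidea and Plin2 stood at places 275, 465 and 812.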

How the data were processed

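Livers of 42 mice in 6 groups of 7 were analysed, grouped by the sample labels. The authors prepared TruSeq stranded total RNA libraries, sequenced pairs on a NovaSeq, aligned to mm10 with Bowtie2, counted genes with featureCounts requiring both mates to map, and ran DESeq2 per comparison. The sample labels give polyA RNA as the molecule, so how the RNA was selected is not settled. Neither tool versions nor annotation nor strand setting were given in the sources used here. The deposited signal values are gene counts divided by a size factor over 14 libraries and are comparable within a table only. The authors' columns of mean, shrunken log2 fold change, standard error and p-values were not used. Whole reads were recovered from 100% of values within 0.1 reads, and 0 reads differed for a library between tables. No pair of replicates was alike within sampling noise (lowest chi-square per gene 21.7), so each counted once. That replicates are separate mice comes from the labels.

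Tests used limma 3.58.1 in R 4.3.3 (lmFit, eBayes with trend, two-sided) on log2(normalized count + 1) of genes with a mean of at least 5, with Benjamini-Hochberg adjustment over all genes of a table and a threshold of 0.1. Interactions used 28 libraries, each effect formed within its own table. Alternatives were pseudocounts 0.5 and 4, no filter, TMM and equal-total scaling, edgeR 4.0.16 and DESeq2 1.42.0 on recovered reads, the identifier number as a random block, library quality weights, other thresholds and leaving out each mouse. On simulated counts with 200 changed genes, 73.1% of 2-fold changes were recovered for diet in WT mice, 83.6% in KO mice, 82.1% for lean KO against WT and 58.2% for the diet by genotype interaction. For 1.5-fold changes these shares were 20.9%, 35.8%, 44.8% and 17.9%, and 5.9% to 10.6% of the genes called were false. The simulated mice were independent and had fewer changed genes than passed for diet, so the shares need not hold for these data. All 10 members are named, with the 2 genes of smallest adjusted p per list and direction among those that passed with diet or in lean KO against lean WT mice, and the 5 genes nearest to G0s2 and to Cidec. Lists and motifs come from general knowledge. Reads per library were 15992525 to 43841120. P-values of the main fit measure the spread among these mice, taken as independent of each other. What the identifier numbers mark is not given, so mice with the same number may not be independent. The members, lists and tests were chosen with earlier results of these data known.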

Additional observations from a re-analysis of the deposited data

Results flagged for a closer look

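Of 60 groups of 7 mice examined, 1 for each gene and group, 5 held a mouse whose gap to its nearest neighbour exceeded Dixon's 95% critical value, which chance exceeds in about 5% of groups.

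G0s2 was 1403 in WT obese replicate 1, where the other 6 mice ran from 4365 to 9712. This mouse was also the lowest of its group in Plin2 (6260) and the highest in Pnpla2 (2727), Plin5 (5328), Hilpda (173) and Igfbp1 (10542).

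Hilpda was 566 in KO obese replicate 4, against 112 to 169 in the other 6, and 1356 in KO obese+RvE1 replicate 6, against 56.1 to 191 in the other 6. Each of these mice was the highest of its group in Plin5 (7992 and 4797), Igfbp1 (29355 and 37510), Pck1 (93825 and 124798), Pdk4 (1732 and 1850) and Angptl4 (10431 and 8617). Srebf1, which is known to rise with feeding, was the second highest of its group in the first (4670) and the highest in the second (11923). The first mouse was also the lowest of its group in G0s2 (5259) and the highest in Pnpla2 (2703). The second was at places 5 and 3 from the highest in these genes (5771 and 1739). Both mice carry the same identifier number, the only 1 found in more than 1 group. KO obese+RvE1 replicate 7 also carries it and was among the other 6 for Hilpda. The libraries of KO obese replicate 4 and KO obese+RvE1 replicate 6 had the fewest reads of all, 15992525 and 16969056. That these mice are independent of each other was not tested.

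Pnpla2 was 2934 in WT obese+RvE1 replicate 3, against 1588 to 1910 in the other 6 mice. This mouse was also the highest of its group in Cideb (1165), Pck1 (139884), Pdk4 (961), Igfbp1 (6667), Angptl4 (12354) and Per1 (1544). In Srebf1 (3528) it was at place 3 from the highest. Plin5 was 5965 in WT obese+RvE1 replicate 1, against 2480 to 3594 in the others, and this mouse was also the highest of its group in Hilpda (191) and Plin4 (3520).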

How the results depend on the processing

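The number of members that passed stayed within 1.5 times the main number in 80 recomputations under another setting and in 138 without 1 mouse, and moved further in those given here. For diet in WT mice (2 of 10) it was 1 with equal totals, with a random block for the identifier number and at an adjusted p under 0.05, and it was 4 in DESeq2 and 5 with quality weights. For lean KO against lean WT mice (2 of 9) it was 0 with the block and 4 with quality weights. For the diet by genotype interaction (0 of 10) it was 1, Plin5, with quality weights. Leaving out 1 mouse gave 2 to 3 for diet in WT mice, 4 to 7 in KO mice and 2 to 4 in lean KO against lean WT mice, where it was 4 without KO lean replicate 5 or WT lean replicate 6, and 0 in each other comparison. In KO mice it was 7 without KO obese replicate 4.

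Of 2096 recomputed log2 fold changes of members, 92 changed sign, all in values that passed in neither fit. Equal totals moved the median of all genes by 0.14 for diet in KO mice and by -0.12 for lean KO against lean WT mice, and G0s2, Plin2, Plin4 and Plin5 kept their direction in KO mice. With equal totals 2555 genes were higher and 628 lower for diet in KO mice, against 1704 and 1718 in the main fit, and 392 were higher and 1753 lower for lean KO against lean WT mice, against 1042 and 1081. The number of all genes that passed also moved by over 1.5 times under other settings. For diet in WT mice (512 higher and 366 lower) it was 349 and 161 with equal totals, 757 and 610 in DESeq2, 162 and 117 with the block and 882 and 723 with quality weights. For diet in KO mice it was 500 and 557 with the block and 2852 and 2885 with weights, and for lean KO against lean WT mice 2 and 1, and 2067 and 2230. For the diet by genotype interaction (0 and 1) it was 385 and 541 in DESeq2 and 1284 and 1279 with weights. For RvE1 (0 and 0 in both genotypes) it was 6 and 19 in WT and 5 and 12 in KO mice in DESeq2. Without 1 mouse the number of all genes that passed ran from 524 (without WT obese replicate 6) to 1287 for diet in WT mice (878), and from 2222 to 4504 for diet in KO mice (3422), with 2222 and 2237 without KO obese replicate 7 or KO lean replicate 6. For lean KO against lean WT mice (2123) it ran from 572 to 3540, with 3540 without KO lean replicate 5, and 572, 620, 602, 881, 997 and 1135 without WT lean replicates 5 and 2 and KO lean replicates 6, 4, 2 and 3. For the diet by genotype interaction (1) it was 1848 without KO lean replicate 5, 963 without WT obese replicate 1 and 0 to 20 without any other mouse, and it was 0 to 4 for RvE1 in WT mice, 0 to 1 in KO mice, 0 in the interaction with genotype and 1 to 2 for obese KO against obese WT mice. The cause of these differences was not tested. No paired analysis was possible because replicate numbers were given in accession order. The 17 identifier numbers in the labels cover 1 to 4 mice each, 16 of them within 1 group, and what they mark is not given. Under them as a random block the estimated correlation was 0.06 to 0.37. Depth limits Cidea, whose reads were 0 in some mice of 5 groups.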
